A study of Homo sapiens with 36 samples.

Results

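Of the 36 RNA-seq libraries of the series, 6 are titled WT PROTAC11, and their label entries contradict each other on oxaliplatin (OXPT), the platinum drug of the study. They were taken by title and file name: 3 libraries titled WT PROTAC11 and 3 titled WT PROTAC11 OXPT. All 6 are of wild-type (WT) HCT-116 cells, a human colorectal carcinoma line with normal *FBXW7* and with working p53. PROTAC11, or #11, is a compound that brings class IIa histone deacetylases to the VHL ubiquitin ligase for degradation. By title, the first group received #11 for 48 h and the second also received 50 µM OXPT for the last 24 h. By the treatment entry, the libraries titled WT PROTAC11 carried control esiRNA (esiCT) with 50 µM OXPT, and those titled WT PROTAC11 OXPT carried esiCT alone. Neither the treatment entry nor the description entry of these 6 libraries names #11, so its dose here is not settled. Libraries of *FBXW7* -/- cells (KO) give 1 µM in the treatment entry and 10 µM in the description entry.

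The conflict runs through all WT libraries. There are 6 sets of WT titles, and their 6 treatment entries name a different agent in every set, so 0 of 6 match their title on the agent and 2 of 6 on OXPT. The 6 sets of KO titles match their treatment entries on both. For comparison, 4 other pairs of title sets give an OXPT state that does not conflict: KO siCT, KO siHDAC4, KO PROTAC11 and WT siCT, each with 3 libraries without and 3 with 50 µM OXPT. These form 12 untreated and 12 OXPT libraries. Untreated cells received the solvents, water for OXPT and DMSO for #11. The libraries titled WT siCT carry esiHDAC4, an esiRNA against HDAC4, in the treatment entry, so their agent is not settled either. The remaining 6 WT libraries, titled WT siHDAC4, conflict on OXPT too and entered no comparison.

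Platinum drugs bind DNA and form crosslinks that block replication and transcription. The damage stabilises p53, a transcription factor that raises genes of cell cycle arrest, DNA repair and apoptosis, among them *CDKN1A*, which encodes the inhibitor p21 of cyclin-dependent kinases, and *MDM2*, which encodes the ligase that destroys p53. Through p21, p53 lowers genes of G2 and mitosis. Transcription-blocking lesions strike a long gene more often than a short one. These known targets let the OXPT state of a library be read beside its labels.

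The authors deposited raw counts per gene. The 6 libraries held 11103845 to 17013339 counts on genes, and 9.58% to 16.7% of their reads were unmapped. Levels are given as CPM, the count of a gene scaled to a common library size after TMM normalization, and differences as log2 fold changes from edgeR's quasi-likelihood F test over 30 libraries in 10 groups. Over the 12445 genes tested, calls needed a fold change over 1.5 and a p under 0.05 after Benjamini-Hochberg adjustment. Epithelial keratins and adhesion genes fitted the labelled line: their 6 markers summed, before TMM scaling, to 6556 to 10073 CPM in the libraries titled WT PROTAC11 and to 8827 to 12790 in those titled WT PROTAC11 OXPT. Leukocyte markers summed to at most 1.23 CPM (*CD68* at 0), endothelial markers to at most 2.05 and fibroblast markers to at most 31.8.

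*CDKN1A* followed the title. Its level (chromosome 6, 36676460 to 36687337, hg38) was 1175, 944 and 1926 CPM in libraries 1, 2 and 3 titled WT PROTAC11. It was 4706, 3255 and 2848 CPM in those titled WT PROTAC11 OXPT. The groups did not overlap, and every library with OXPT in the title stood above every library without it. The fitted change was +1.42 (SE 0.36, n = 3 and 3 libraries, edgeR adjusted p = 0.0487). The other 12 OXPT libraries spanned 2424 to 4753 CPM, which holds all 3 libraries titled WT PROTAC11 OXPT. The other 12 untreated libraries spanned 283 to 1183 CPM, so that library 3 titled WT PROTAC11 lay above them and still below the lowest OXPT library.

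*MDM2* did not separate the titles. It stood at 39.4, 58.8 and 28.9 CPM without and at 59.8, 134 and 32.9 CPM with OXPT in the title (chromosome 12, 68808177 to 68845544). Within each replicate number the library titled OXPT was the higher one, by 1.52, 2.28 and 1.14 times. The change of +0.83 (SE 0.51) was not called (edgeR adjusted p = 0.74, and 0.523 with the replicate number as a block). The 12 other OXPT libraries reached 53.8 to 542 CPM and the 12 other untreated ones 42.8 to 98.6 CPM. Library 3 of both title groups thus stood below all 24.

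Over the wider p53 programme the direction was that of the title. Of 40 targets in 4 lists, 38 passed the count filter. *SPATA18* and *GLS2* did not, at no more than 1.63 and 0.168 CPM in the 6 libraries. Of the 38, 20 had a lowest level titled OXPT above the highest level without it, and 0 the reverse. Over all 12445 genes tested, the groups failed to overlap upwards for 509 (4.09%) and downwards for 685 (5.5%). Within replicate numbers, 29 of the 38 targets were higher in the library titled OXPT in all 3 numbers and 0 were lower in all 3, beside 16.3% and 20.5% of all genes. The test called 12 of the 38 higher and 0 lower, where 0.546% of all genes were called higher. With the replicate number as a block over all 30 libraries, 16 were called higher and 0 lower, beside 0.812% and 1.11% of all genes. In a fit on the 6 libraries alone 0 were called, beside 1 of 11154 genes called higher. With the block added 12 were called, beside 53 of 11154 genes called higher. With at least 64 counts in every group 10 of the 38 were called higher, beside 41 of 9892 genes. Without 1 of the 6 libraries the count of targets called lay between 4 and 14. It was lowest without library 2 titled WT PROTAC11, where 20 of 12457 genes were called higher. The median change of the 38 was +0.89, against -0.01 over all genes, and 36 of the 38 changes were positive.

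**Figure D1:**
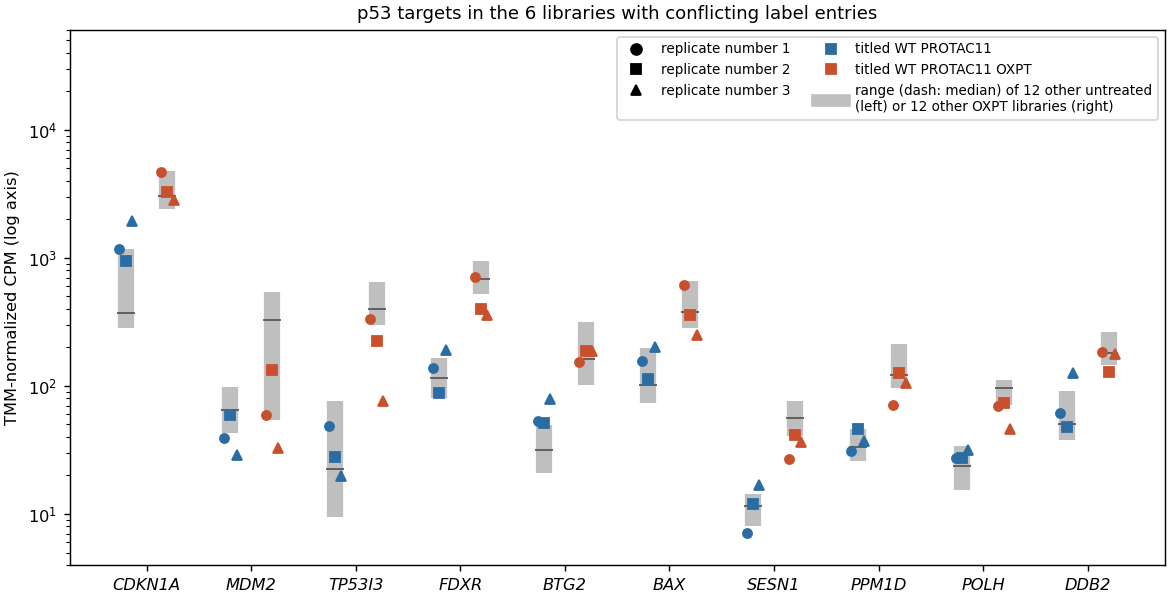
TMM-normalized CPM (log axis) of 10 p53 targets in the libraries titled WT PROTAC11 (blue) and WT PROTAC11 OXPT (red), marked by replicate number, over the range of the 12 other untreated (left bar) and 12 other OXPT libraries (right bar). For *CDKN1A* the red points (2848 to 4706 CPM) stand above the blue ones (944 to 1926), while for *MDM2* the colours overlap.

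Among the targets that arrest the cell cycle, 3 of 9 were called, with a median change of +0.90. Beside *CDKN1A* these were *BTG2* and *SESN1*. *BTG2*, an antiproliferative gene, stood at 53.4, 51.4 and 79.3 CPM without and at 153, 187 and 188 CPM with OXPT in the title (+1.52, SE 0.32, edgeR adjusted p = 0.00966). *SESN1*, a stress-induced sestrin, rose from 7.17, 11.9 and 16.9 CPM to 26.8, 41.5 and 36.6 CPM (+1.54, SE 0.28, edgeR adjusted p = 0.00303). For both genes every library titled OXPT stood above every library without it. *SFN*, which encodes stratifin of the G2 checkpoint, overlapped between the titles, at 657, 428 and 1412 CPM without and 1926, 1006 and 2156 CPM with OXPT. *GADD45A*, a damage-induced growth arrest gene, had a change of +0.20 and already stood at 429 to 634 CPM without OXPT in the title, where the 12 other untreated libraries spanned 57.1 to 549 CPM. *PLK3* and *PLK2*, stress-responsive kinases, had changes of +0.90 and +0.81 with overlapping groups. *CCNG1*, a cyclin, had +0.31, and *SESN2*, the other sestrin, had -0.05.

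Of 7 targets that feed back on p53, 2 were called, with a median change of +0.83, and 3 were called with the block. *PPM1D*, the phosphatase WIP1 that switches p53 signalling off, rose from 30.8, 45.9 and 37.4 CPM to 71.4, 127 and 105 CPM (+1.41, SE 0.27, edgeR adjusted p = 0.00488). *PIDD1*, the scaffold of the PIDDosome, rose from 28.0, 24.2 and 33.9 CPM to 115, 64.6 and 45.3 CPM (+1.39, SE 0.27, edgeR adjusted p = 0.00528). *TP53INP1*, a stress-induced cofactor of p53, had a change of +1.47 without overlap and was called only with the block (edgeR adjusted p = 0.0582, and 0.0495 with it). *TP53INP1* lies wholly within *NDUFAF6* on the other strand, so its level is uncertain too. *MDM2*, *ZMAT3* (+0.74), *CCNG2* (+0.24) and *RCHY1* (+0.14) overlapped between the titles.

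Of 13 targets that act in cell death 4 were called, 6 with the block, and 10 had no overlap between the titles. *TP53I3*, which encodes an oxidoreductase linked to reactive oxygen, had the largest change of the 38. It stood at 48.5, 27.8 and 19.9 CPM without and at 333, 226 and 75.9 CPM with OXPT in the title (+2.72, SE 0.54, edgeR adjusted p = 0.0061). *TP53I3* lies wholly within the span of *FAM228B* on the other strand, and since the counts used here carry no strand its level is uncertain. *FDXR*, the ferredoxin reductase of mitochondria, rose from 138, 88.1 and 191 CPM to 707, 400 and 357 CPM (+1.81, SE 0.29, edgeR adjusted p = 0.0011). *PHLDA3*, an inhibitor of AKT signalling, rose from 86.6, 66.8 and 91.6 CPM to 452, 242 and 115 CPM (+1.72, SE 0.36, edgeR adjusted p = 0.00884). *BAX*, the pore-forming protein of the mitochondrial outer membrane, rose from 155, 113 and 201 CPM to 618, 359 and 251 CPM (+1.39, SE 0.35, edgeR adjusted p = 0.0459). In all 4 genes the library titled OXPT with the lowest level was number 3. *BBC3*, which encodes the BH3-only protein PUMA, stood at 91.2, 69.1 and 114 CPM without and at 273, 162 and 162 CPM with OXPT in the title, and its change of +1.13 (SE 0.39) missed the threshold (edgeR adjusted p = 0.235).

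*FAS*, a death receptor, and *TRIAP1*, an inhibitor of apoptosis, had changes of +1.60 and +0.89 without overlap and passed only with the block (edgeR adjusted p = 0.0342 and 0.0102 with it, 0.0609 and 0.0667 without). Part of the span of *FAS* is shared with *ACTA2* on the other strand and with *STAMBPL1* on its own. *AEN*, a nuclease (+0.77), *TNFRSF10A*, a TRAIL receptor (+0.65), and *BLOC1S2* (+0.86) did not overlap either and were not called. *PMAIP1*, which encodes NOXA, and *TNFRSF10B*, the other TRAIL receptor, had changes of +0.37 and -0.03, and *PERP* of +0.57, all with overlapping groups.

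Of 9 targets in DNA repair, nucleotide supply and metabolism 3 were called, and 4 with the block. *POLH*, the polymerase that copies past DNA lesions, rose from 27.3, 27.2 and 31.7 CPM to 69.7, 73.7 and 46.0 CPM (+1.14, SE 0.20, edgeR adjusted p = 0.00276). *RPS27L*, a paralog of a ribosomal protein, rose from 122, 82.3 and 186 CPM to 331, 346 and 251 CPM (+1.25, SE 0.29, edgeR adjusted p = 0.0209). *FBXO22*, an F-box protein, rose from 58.0, 65.5 and 96.9 CPM to 109, 130 and 167 CPM (+0.88, SE 0.19, edgeR adjusted p = 0.0152). None of the 3 overlapped between the titles, though *POLH*, *RPS27L* and *FBXO22* each share part of their span with a gene on the other strand. *DDB2*, a damage sensor of nucleotide excision repair, stood at 62.0, 47.7 and 127 CPM without and at 185, 128 and 177 CPM with OXPT in the title. Its change of +1.05 was called only with the block (edgeR adjusted p = 0.114, and 0.00721 with it). *XPC*, *RRM2B* and *TIGAR* had changes of +0.57, +0.86 and +0.79 and *EPHA2* of +0.20, all with overlapping groups. *GDF15*, a secreted stress factor, stood at 2341, 1746 and 1478 CPM without and at 6817, 3799 and 1725 CPM with OXPT, and its groups overlapped too.

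**Figure D2:**
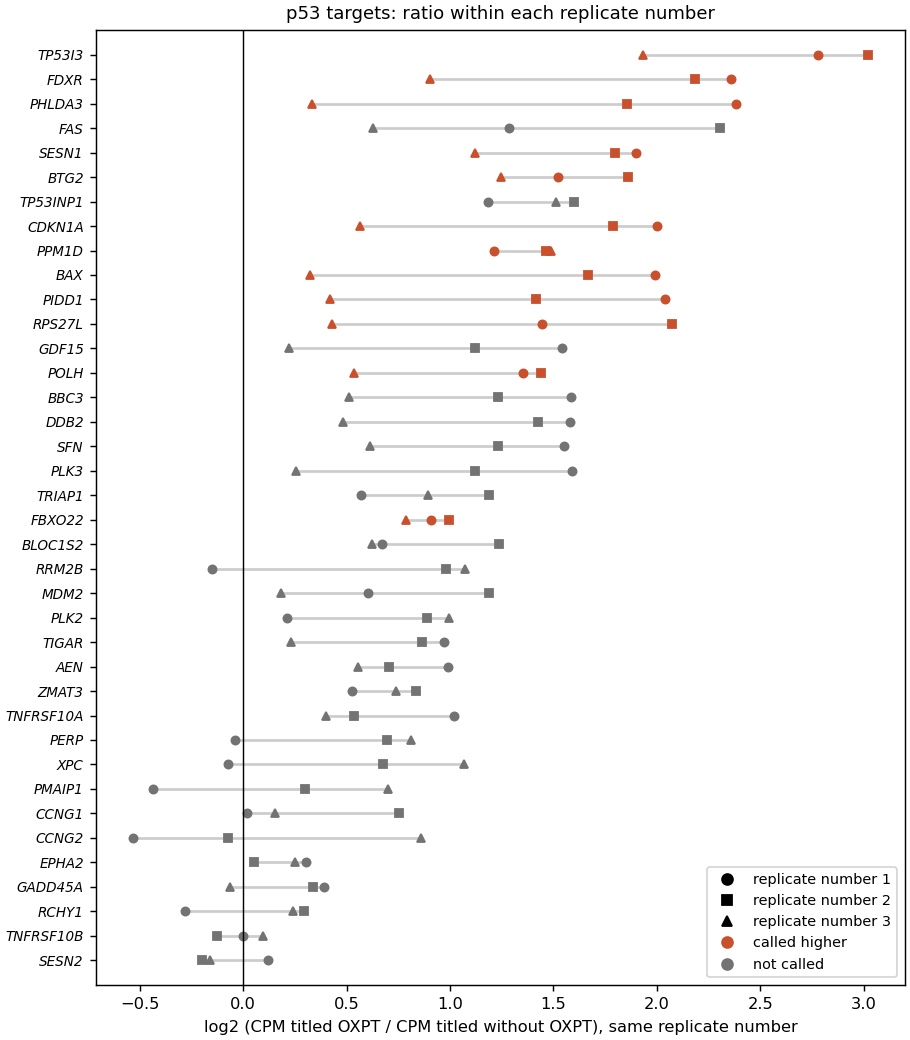
Log2 ratio of CPM, library titled WT PROTAC11 OXPT over the library titled WT PROTAC11 of the same replicate number, for the 38 p53 targets tested; red marks the 12 called higher. Triangles (number 3) hold the smallest ratio for 11 of those 12.

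Replicate number 3 showed the smallest separation. For 11 of the 12 called targets, and for 23 of the 38 tested, the smallest ratio between the titles was that of number 3. Over all genes number 3 had the smallest absolute ratio in 41.6%, an unlike measure, since it ignores the sign. The median log2 ratio over the 38 was +1.00, +1.15 and +0.56 in numbers 1, 2 and 3. With number 3 left out of all 10 groups, 20 of the 38 were called higher and 0 lower. In that fit 283 of 12574 genes were called higher and 327 lower, so calls rose over all genes too.

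The libraries titled without OXPT stood between the other untreated and the OXPT libraries. For each library, the median deviation of the 38 targets from their mean over the 30 libraries was taken on the log2 scale. It was -0.34, -0.35 and +0.07 in libraries 1, 2 and 3 titled WT PROTAC11, and +0.78, +0.89 and +0.66 in those titled WT PROTAC11 OXPT. The 12 other untreated libraries lay between -1.19 and -0.39 and the 12 other OXPT libraries between +0.59 and +1.05. The libraries titled OXPT thus lay within the OXPT range, and those titled without OXPT lay above all 12 other untreated libraries and below all 12 OXPT libraries. The highest of those 12, at -0.39, was library 3 titled WT siCT UNT. For 10 of the 38 targets the median of the libraries titled WT PROTAC11 was above the highest of the 12 other untreated libraries. The same count was not made over all genes, so it cannot be read as particular to p53 targets. The p53 targets speak to the OXPT entry only; they carry no reading of whether #11 was present.

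Promoters were searched for the p53 response element, the DNA motif that p53 binds. Its consensus is 2 half-sites of 10 bases with up to 13 bases between them, and it was searched on both strands, since it is its own reverse complement, in the RefSeq promoters of GRCh38.p14 (250 bases before to 50 after each start). It stood in 10 of 35116 promoters (0.0285%). Counted by gene, the element stood in 5 of the 9512 tested genes with a promoter (0.0526%): *DDB2*, *LNCTAM34A*, *MCC*, *PTCHD4* and *PURPL*. Of 38 targets tested, 31 had a promoter in that table and 1, *DDB2*, held it. Of 66 gene symbols called higher, 46 had a promoter and 1, *LNCTAM34A*, held it, and of 96 called lower 78 had one and 0 held it. A single half-site was in 6.63% of all promoters. Counted by gene, like the shares that follow, it was in 716 of the 9512 tested genes with a promoter (7.53%). It was in 7 of the 31 (22.6%), in 8 of the 46 called higher (17.4%) and in 14 of the 78 called lower (17.9%). *LNCTAM34A* and *MIR34AHG*, transcribed in opposite directions, are the long noncoding RNAs at the locus of the p53-induced miR-34a; they were chosen here after their values were seen. *MIR34AHG* rose from 7.61, 7.72 and 9.94 CPM to 28.2, 25.6 and 13.5 CPM (+1.41, SE 0.29, edgeR adjusted p = 0.00966). *LNCTAM34A* rose from 0.797, 0.702 and 2.62 CPM to 8.12, 3.78 and 4.13 CPM (+1.96, SE 0.48, edgeR adjusted p = 0.0331). The 2 genes overlap on opposite strands, so their counts cannot be told apart without strand. The promoters of *DDB2* and *LNCTAM34A* are shown because, of the 38 targets and the genes called, only they hold the whole element. It is in capitals, on the gene's strand. *DDB2* lies at chr11:47214724-47215023 and *LNCTAM34A* at chr1:9181954-9182253, both on the plus strand.
DDB2: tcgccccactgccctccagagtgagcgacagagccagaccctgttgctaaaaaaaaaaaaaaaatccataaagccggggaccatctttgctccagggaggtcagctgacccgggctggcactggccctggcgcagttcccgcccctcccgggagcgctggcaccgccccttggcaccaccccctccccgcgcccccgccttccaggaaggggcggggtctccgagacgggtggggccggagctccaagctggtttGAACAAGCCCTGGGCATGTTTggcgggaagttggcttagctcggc
LNCTAM34A: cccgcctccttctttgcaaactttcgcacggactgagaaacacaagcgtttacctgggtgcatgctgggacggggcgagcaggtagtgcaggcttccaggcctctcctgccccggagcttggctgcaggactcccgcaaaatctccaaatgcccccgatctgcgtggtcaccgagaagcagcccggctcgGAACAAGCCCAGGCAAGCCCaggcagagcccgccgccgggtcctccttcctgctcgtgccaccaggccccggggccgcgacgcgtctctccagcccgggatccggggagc
In the *DDB2* window the half-sites are 1 base apart, and in *LNCTAM34A* they adjoin.

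Across all genes 165 of 12445 (1.33%) were called between the titles, 68 higher (0.546%) and 97 lower (0.779%) in the libraries titled OXPT, and 1136 had an unadjusted p under 0.05. The calls moved with the fit: 239 with the replicate block (101 higher and 138 lower, all 165 among them), 265 by DESeq2, and 10 when only the 6 libraries were fitted. Without 1 of the 6 libraries they ranged from 73 to 230, the lowest without library 2 titled WT PROTAC11. Counts were also simulated with the spread estimated over all 30 libraries and without an effect of replicate number. In them, 83 of 100 genes changed by 4-fold and 19 of 100 changed by 2-fold were called, so that 2-fold changes were mostly out of reach at that spread. The simulation does not hold the shared deviations of same-numbered libraries.

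The 10 highest calls with a symbol, at least 64 mean counts in both groups and no overlap were *TP53I3*, *GRIN2C*, *PTAFR*, *INKA2*, *NECTIN4*, *FDXR*, *HES2*, *PHLDA3*, *PGF* and *SESN1*. *GRIN2C*, a subunit of the NMDA receptor that is the neighbour of *FDXR* on chromosome 17, rose from 7.97, 5.62 and 5.56 CPM to 45.5, 32.7 and 11.7 CPM (+2.23, SE 0.38, edgeR adjusted p = 0.00202). *PTAFR*, the receptor of platelet-activating factor, rose from 8.14, 5.91 and 12.3 CPM to 41.1, 30.3 and 31.2 CPM (+1.96, SE 0.39). *NECTIN4*, an adhesion molecule of epithelia, rose from 13.5, 12.3 and 16.5 CPM to 56.3, 54.8 and 38.8 CPM (+1.83, SE 0.45). *INKA2*, an inhibitor of the kinase PAK4, rose by 1.87, *HES2*, a transcriptional repressor, by 1.75 and *PGF*, the placental growth factor, by 1.65. All 10 were also higher with OXPT in the libraries titled WT siCT and KO PROTAC11, where for example *PTAFR* rose by 3.18 and 3.35.

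The 10 lowest calls by the same rule were *SMYD3*, *MACROD1*, *GNG7*, *MEGF6*, *LHPP*, *SLC19A1*, *RPL22L1*, *CAMK1D*, *CAPN15* and *STX8*. *SMYD3*, a lysine methyltransferase gene of 758 kb (chromosome 1, 245749342 to 246507312), fell from 29.4, 27.1 and 45.9 CPM to 4.85, 4.45 and 7.58 CPM (-2.60, SE 0.30, edgeR adjusted p = 2.54e-05). *CAMK1D*, a calcium-dependent kinase gene of 486 kb, fell from 17.5, 17.1 and 20.2 CPM to 4.43, 6.53 and 6.07 CPM (-1.68, SE 0.27). *STX8*, a syntaxin gene of 326 kb, fell from 28.3, 17.9 and 42.8 CPM to 11.0, 6.16 and 12 CPM (-1.61, SE 0.31). *GNG7*, a G protein subunit gene of 191 kb, fell from 43.9, 39.7 and 52.9 CPM to 11.3, 8.01 and 14.2 CPM (-2.03, SE 0.33). *RPL22L1*, a ribosomal protein paralog, is short at 5.33 kb and fell from 688, 432 and 890 CPM to 269, 180 and 152 CPM (-1.74, SE 0.41). *SLC19A1*, the reduced folate carrier, fell by 1.81, *MACROD1* by 2.07, *MEGF6* by 1.91, *LHPP* by 1.87 and *CAPN15* by 1.61.

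Genes called lower were long. Their median genomic span, from first to last annotated base, was 326 kb, against 23.9 kb for genes called higher and 30.5 kb for all genes tested. Of 349 genes over 300 kb, 54 (15.5%) were called lower and 1 higher, with a median change of -0.66. Of 4761 genes up to 20 kb, 17 (0.357%) were called lower and 29 higher, with a median of +0.09. The genes between, of 20 to 100 kb and of 100 to 300 kb, had medians of -0.01 and -0.22. Up to 20 kb the median ratio within a replicate number was +0.18, +0.15 and -0.07 in numbers 1, 2 and 3. From 20 to 100 kb it was -0.15, -0.04 and +0.07, and from 100 to 300 kb -0.42, -0.26 and -0.03. Below 300 kb the medians of number 3 thus did not fall steadily with span. Over 300 kb the median ratio was -0.77, -0.69 and -0.50 in numbers 1, 2 and 3. The same bin had a median of -1.03 with OXPT in the libraries titled WT siCT and of -0.96 in KO PROTAC11, with 39.8% and 33.5% of its genes called lower.

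Span also tracked differences between libraries of 1 group. Across genes, the rank correlation of a library's deviation from the mean of the 30 libraries with span was -0.31, 0.16 and -0.24 in libraries 1, 2 and 3 titled WT PROTAC11. It was -0.48, -0.16 and -0.21 in those titled OXPT, between -0.29 and 0.54 in the 12 other untreated and between -0.45 and 0.29 in the 12 other OXPT libraries. These points share library, depth and transcript length, genes are not independent, and the part of these differences in the results was not tested.

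Of 24 genes of G2 and mitosis, all tested, 8 were called lower and 0 higher, beside 0.779% of all genes called lower. The median change was -0.98, all 24 changes were negative, and 23 of 24 were lower in the library titled OXPT in all 3 replicate numbers. *PLK1*, the kinase that drives mitotic entry, fell from 128, 107 and 57.8 CPM to 44.5, 34.9 and 22.2 CPM (-1.53, SE 0.30, edgeR adjusted p = 0.00488). *CCNB1*, the mitotic cyclin B1, fell from 116, 133 and 87.6 CPM to 37.2, 65.6 and 51.2 CPM (-1.13, SE 0.25, edgeR adjusted p = 0.013). *CDC20*, the activator of the anaphase-promoting complex, fell from 407, 318 and 258 CPM to 168, 107 and 112 CPM (-1.35, SE 0.27). The other calls, named after their values were seen, were *CCNB2* (-1.37), *CDC25B* (-1.20), *CDC25C* (-0.98), *AURKA* and *UBE2C*. *AURKA*, a spindle kinase, stood at 42.9, 46.2 and 28.5 CPM without and at 16.2, 23.1 and 19.5 CPM with OXPT in the title, and *UBE2C*, a ubiquitin-conjugating enzyme of mitotic exit, at 202, 172 and 146 CPM against 96.9, 95 and 67.8 CPM. *CENPF*, a kinetochore gene, had the lowest change of the list at -1.69 and was not called at 4.13 to 5.67 CPM without and 1.16 to 2.27 CPM with OXPT in the title. *AURKB* (-0.48) and *TTK* (-0.54) had the smallest changes. Without 1 of the 6 libraries 1 to 7 of the 24 were called. The lowest was without library 1 titled WT PROTAC11, where 62 of 12478 genes were called lower. The highest was without library 3 of that title, where 127 of 12434 genes were called lower. When only the 6 were fitted, 0 of the 23 then tested were called, beside 9 of 11154 genes called lower. With at least 64 counts in every group, 17 of the 24 were tested and 7 called lower, beside 37 of 9892 genes. In such bulk samples, fewer cells in a phase and less RNA per cell cannot be told apart.

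By the same median deviation per library, these 24 genes stood at or below the low end of the other libraries in part of both title groups. Libraries 1, 2 and 3 titled WT PROTAC11 stood at -0.11, +0.19 and -0.33, where the 12 other untreated libraries spanned +0.07 to +1.47, so that library 2 lay within that range and the other two below it. The libraries titled KO PROTAC11 without OXPT, at +0.44, +0.35 and +0.07, and library 3 titled WT siCT UNT, at +0.34, also stood low in the untreated range. The libraries titled OXPT stood at -1.43, -0.83 and -1.07, where the 12 other OXPT libraries spanned -1.11 to -0.01, and only library 1 lay below them. *MKI67*, the proliferation marker Ki-67, chosen after its values were seen, stood at 21, 19.5 and 25.9 CPM without OXPT in the title, below the lowest of the 12 other untreated libraries at 33.6 CPM.

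No other list held more than 2 calls. Genes of DNA replication had a median change of -0.39 over 25, with 0 called and 16 lower in all 3 numbers. *PCNA*, the sliding clamp and itself a p53 target, stood at 285, 263 and 290 CPM without and at 314, 526 and 509 CPM with OXPT in the title (+0.69, edgeR adjusted p = 0.111), while *POLA1* had a change of -0.01, *CDC6* of -0.57 and *MCM10* of -0.98. Genes of homologous recombination and of the Fanconi anaemia pathway had a median of -0.36 over 20, with 0 called. Its extremes were *RAD51C* (+0.27), *FANCE* (+0.14), *FANCD2* (-1.10) and *BRCA1* (-1.12), and *BRCA1* stood at 4.43, 5.38 and 4.61 CPM against 2.32, 2.45 and 1.85 CPM. The genes that the study assigned to its group 1 of super-enhancers had a median of -0.34 over the 61 tested of 83, with 2 called lower, *RAD51B* and *HS3ST1*, the second named after its values were seen. *RAD51B*, a recombination gene, of 910 kb, fell from 2.57, 3.92 and 2.31 CPM to 0.527, 0.742 and 0.590 CPM (-2.22, SE 0.34, edgeR adjusted p = 0.000994), *BTC* had a change of -1.69, *WFDC3* of +0.52 and *RNF43* of +0.43. That list was built by the study on this cell line and is not independent evidence. Its group 2 had a median of -0.23 over 24 of 33, with 0 called and with *ABCC2* (+0.59), *ANGEL1* (+0.51), *STN1* (-0.65) and *SH3PXD2A* (-0.79) at the ends.

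None of the targets of #11 or of the subunits of its ligase was called between the titles. *HDAC4*, the deacetylase that #11 degrades as a protein, stood at 24.0, 29.4 and 17.2 CPM without and at 16.4, 16.6 and 8.93 CPM with OXPT in the title. Its groups did not overlap, and the change of -0.75 (SE 0.27) was not called (edgeR adjusted p = 0.264). *HDAC4* is a long gene, and genes over 300 kb had a median change of -0.66. The part of span in its change was not tested. *HDAC5* and *HDAC7* had changes of +0.38 and +0.14 with overlap, and *HDAC9* was not tested, at no more than 1.58 CPM. *FBXW7* stood at 17.4, 21.9 and 20.4 CPM against 20.4, 24.3 and 14.1 CPM (-0.02, SE 0.30). Of the VHL ligase, *VHL* (+0.04), *CUL2* (-0.37), *ELOB* (+0.37), *ELOC* (+0.15) and *RBX1* (-0.10) were not called. A degrader acts on protein, so these RNA levels do not show whether #11 was present.

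The remaining lists held 0 calls each. HIF targets, hypoxia genes that are raised where VHL fails, had a median of -0.34 over 13, from *EGLN1* (+0.36) and *ADM* (+0.29) to *VEGFA* (-0.72) and *CA9* (-1.20). The MEF2 factors with KLF and NR4A genes, which class IIa deacetylases repress through MEF2, had a median of -0.19 over 11, from *NR4A3* (+0.63) and *NR4A1* (+0.59) to *MEF2C* (-0.58) and *KLF4* (-0.89). *ATF4* and its targets of the integrated stress response had a median of -0.05 over 13, with *ATF3* (+0.50), *CEBPB* (+0.22), *DDIT4* (-0.75) and *SLC7A11* (-0.81) at the ends. AP-1 and immediate early genes had a median of +0.17 over 14 (*EGR2* +0.74, *FOS* +0.62, *MYC* -0.28, *FOSL1* -0.46). Genes whose proteins FBXW7 marks for degradation had a median of -0.15 over 9 (*NOTCH1* +0.34, *JUN* +0.10, *KLF5* -0.35, *MTOR* -0.44). Respiratory chain subunits had a median of +0.10 over 29 (*SDHA* +0.39, *SDHB* +0.35, *NDUFA9* -0.17, *NDUFV1* -0.20). Cholesterol synthesis genes had a median of +0.10 over 16 (*DHCR7* +0.42, *CYP51A1* +0.30, *LSS* -0.23, *SREBF2* -0.28). Heat shock chaperones had a median of +0.05 over 10 (*BAG3* +0.35, *DNAJB1* +0.28, *HSPH1* -0.02, *HSPD1* -0.13). Ribosome biogenesis genes had a median of +0.02 over 23 (*NOP16* +0.43, *POLR1C* +0.42, *UTP20* -0.31, *UBTF* -0.33), and interferon-stimulated genes of -0.04 over 11 (*ISG15* +0.44, *OASL* +0.34, *OAS3* -0.39, *IFIT2* -0.57). Epithelial markers had a median of +0.25 over 6 (*KRT19* +0.40, *KRT8* +0.37, *EPCAM* -0.13, *CDH1* -0.46), and *COL1A1*, the only fibroblast marker tested, had a change of 0.00.

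The response between the titles WT PROTAC11 was set beside OXPT responses measured in other libraries. The libraries titled WT siCT gave 1160 calls (9.32%), 556 higher (4.47%) and 604 lower (4.85%), and KO PROTAC11 gave 952 (7.65%), 548 higher (4.4%) and 404 lower (3.25%); none of these libraries is shared with the 6. Of the 68 genes called higher between the titles WT PROTAC11, 66 were called higher in WT siCT and 67 in KO PROTAC11. Those 66 are 97.1% of the 68 and 11.9% of the 556 called in WT siCT. Of the 97 called lower, 94 and 74 were called lower there, and 0 of the 165 were called in the opposite direction in either. Across the 12445 genes, Pearson's r between the fold changes was 0.78 with WT siCT and 0.76 with KO PROTAC11 (Spearman's rho 0.72 and 0.71). Genes are not independent replicates, and the comparisons share the fitted spread. Over the 556 genes called higher in WT siCT the median change was +0.59 between the titles WT PROTAC11 and +1.18 in WT siCT, and over the 604 called lower -0.76 and -1.36, but these genes were selected by their change in WT siCT. Over the 97 genes called lower between the titles WT PROTAC11, selected there, the median was -1.60, against -1.94 in WT siCT and -1.41 in KO PROTAC11. The list of G2 and mitosis had medians of -0.98, -1.60 and -0.95 in the same order, so the titles WT PROTAC11 did not have the smaller change throughout.

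No gene was called in the test of the difference between the responses. Against WT siCT, 0 of 12445 genes (0%) passed by edgeR, with 296 at an unadjusted p under 0.05, and 1 by DESeq2. Against KO PROTAC11, 0 passed (0%), with 334 at an unadjusted p under 0.05, and 5 by DESeq2. Among the 38 p53 targets, 33 had a smaller change than in WT siCT and 31 a smaller one than in KO PROTAC11. The same counts were not made over all genes, so they cannot be read as particular to p53 targets. The 556 genes called higher in WT siCT also had a smaller median change here (+0.59 against +1.18), though selected by their change there. The change of *CDKN1A* was +1.42 here, +2.56 in WT siCT and +2.51 in KO PROTAC11. Its difference from WT siCT was -1.14 (95% interval -2.14 to -0.15, normal approximation from the fitted SE), with an unadjusted p of 0.0325 from the edgeR fit and an adjusted p of 0.999.

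The libraries titled WT PROTAC11 were last compared with those titled WT siCT, which by title asks for the effect of #11. The agent is contradicted by the treatment entry in both groups, and the groups also differ by which libraries stand apart, so these counts describe the title groups. Without OXPT in the title, 239 genes (1.92%) were called, 146 higher (1.17%) and 93 lower (0.747%) in WT PROTAC11. The count was 0 without library 1 titled WT PROTAC11 or library 2 titled WT siCT UNT, 1 without library 3 titled WT PROTAC11 or library 1 titled WT siCT UNT, 2254 without library 3 titled WT siCT UNT, and 0 when only the 6 libraries of the comparison were fitted (1637 at an unadjusted p under 0.05). Among the highest by the rule were *CALB2* (+2.19), *SPTSSB* (+2.07), *CD55* (+1.89) and *CSTA* (+1.89), and the 5 lowest *CENPF* (-3.37), *BUB1* (-2.80), *BBX* (-2.76), *FOCAD* (-2.65) and *TOP2A* (-2.62). Of the 24 genes of G2 and mitosis 7 were called lower and 0 higher, *CENPF*, *BUB1* and *TOP2A* among them, beside 0.747% of all genes called lower. Of the 38 p53 targets 1 was called, *PMAIP1*, higher by 1.73 (edgeR adjusted p = 0.0498). The median change of the 38 was +0.63, against +0.04 over all genes, and 31 of the 38 changes were positive. With the replicate block 6 of the 38 were called higher, beside 645 of 12445 genes.

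With OXPT in the title, 92 genes (0.739%) were called, 74 higher (0.595%) and 18 lower (0.145%) in WT PROTAC11 OXPT than in WT siCT OXPT. The count was 5 without library 2 and 10 without library 1 titled WT siCT OXPT, 38 and 31 without libraries 2 and 3 titled WT PROTAC11 OXPT, 299 without library 1 of that title, 794 without library 3 titled WT siCT OXPT, and 1 when only the 6 were fitted. The highest 5 by the rule were *PCK2* (+2.75), *PHGDH* (+2.54), *SLC1A4* (+2.36), *PSAT1* (+2.30) and *SNHG32* (+2.00). *PHGDH* and *PSAT1* encode the first enzymes of serine synthesis and *SLC1A4* a transporter of serine and alanine, which lies within *LINC02245* on the other strand. *PHGDH* stood at 676, 506 and 428 CPM against 107, 55.7 and 113 CPM (SE 0.33, edgeR adjusted p = 0.000643). *PSAT1* stood at 402, 796 and 631 CPM against 140, 90.6 and 141 CPM (SE 0.51, edgeR adjusted p = 0.0324). *PCK2*, the mitochondrial PEP carboxykinase, stood at 212, 149 and 108 CPM against 26.3, 10.8 and 32.7 CPM (SE 0.54, edgeR adjusted p = 0.0144), and it lies within the span of *NRL* on the other strand. The levels of *PHGDH* and *PCK2* titled WT PROTAC11 OXPT lay above all 12 other OXPT libraries, which reached 130 and 74.1 CPM.

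Of these genes, *PHGDH* and *PSAT1* are in the list of ATF4, the factor of the amino acid response, and its targets. Of 13 members tested of the ATF4 list, all 13 were higher in WT PROTAC11 OXPT than in WT siCT OXPT, with a median of +1.71 against +0.04 over all genes. Called were 3, *PHGDH*, *PSAT1* and *ASNS*, beside 0.595% of all genes called higher. Since *PHGDH* and *PSAT1* are also among the highest 5 calls above, the list is not separate evidence. *ASNS*, the asparagine synthetase, named after its values were seen, stood at 10.0, 14.7 and 50.7 CPM against 1.37, 0.916 and 1.73 CPM (+4.23, SE 0.70, edgeR adjusted p = 0.0049). Without OXPT in the title the same list had a median of +0.85 with 1 called. *PHGDH* changed by -0.03 with OXPT between the titles WT PROTAC11, by -1.52 in WT siCT and by -1.58 in KO PROTAC11. The differences of those responses, which use the libraries that chose the gene, were not called over all genes. The 5 lowest calls were *UCA1* (-2.30), *P2RY2* (-1.71), *LRP1* (-1.54), *TMCC1* (-1.42) and *BZW2* (-1.40). *LRP1*, an endocytic receptor, stood at 24.1, 18.0 and 13.9 CPM against 50.6, 51.6 and 61.1 CPM. *P2RY2*, a nucleotide receptor, rose with OXPT between the titles WT PROTAC11 by 0.98 and in WT siCT by 2.49.

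**Figure D3:**
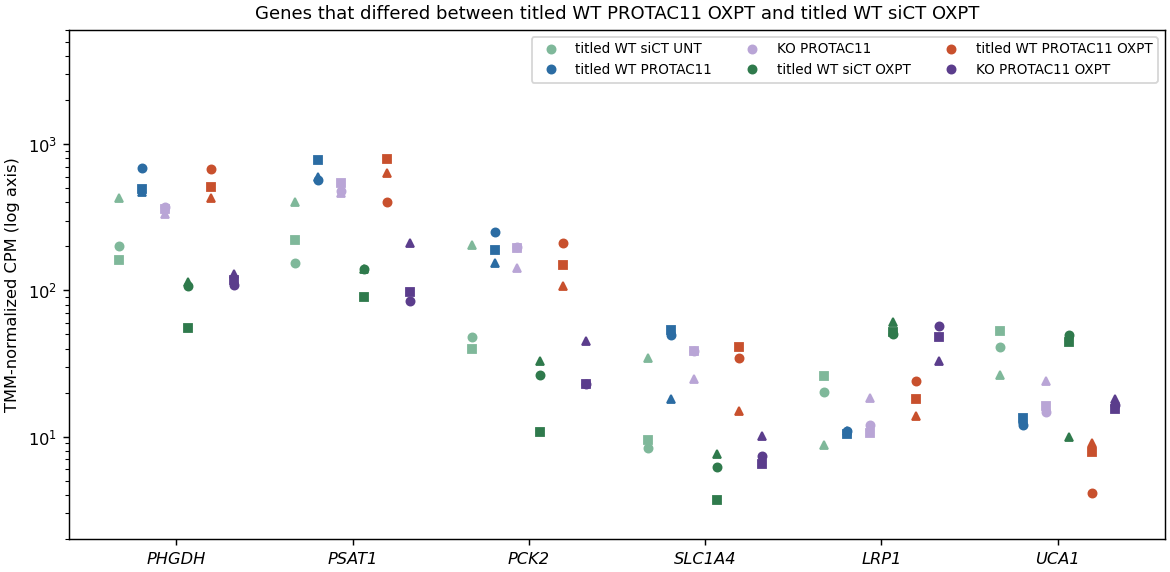
TMM-normalized CPM (log axis) in each library of the titles WT siCT, WT PROTAC11 and KO PROTAC11, without and with OXPT, for 4 genes called higher and 2 called lower in WT PROTAC11 OXPT than in WT siCT OXPT; marker shape is the replicate number. *PHGDH* stands at 428 to 676 CPM in WT PROTAC11 OXPT and at 55.7 to 113 CPM in WT siCT OXPT.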

How the data were processed

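RNA was polyA-selected from HCT-116 cells and sequenced. The authors deposited raw counts per gene for each library, in an unstranded and 2 stranded columns; per the labels' processing notes reads were handled with Trimmomatic 0.39 and STAR 2.7.11a on hg38. The unstranded column was used, since forward and reverse counts were nearly equal. Rows that name no gene held 27.4% to 34.9% of reads in the 6 libraries and were left out. Libraries were grouped by title. The members and gene lists were chosen with earlier results of these data known.

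Genes were tested in edgeR 4.0.16 (R 4.3.3, TMM, quasi-likelihood F test, 10 groups) with Benjamini-Hochberg adjustment. They needed a mean count of at least 64 in at least 1 of the 10 groups. A gene could thus enter through other groups, as did *LNCTAM34A* and *RAD51B*, which averaged fewer than 64 counts in both title groups WT PROTAC11. Named were all p53 targets, the class IIa HDACs, *FBXW7* and the VHL ligase, the 2 highest and 2 lowest changes of each other list, and the 10 (other comparisons, 5) highest and lowest calls with at least 64 mean counts in both groups and no overlap. The labels do not say whether replicates were separate cultures, so p-values measure the spread between libraries, which may be technical. Between the titles WT PROTAC11, same-numbered libraries deviated together (r = 0.73, 0.81 and 0.44 in numbers 1 to 3). In the replicate block over all 30 libraries, the effect of a number was shared by all 10 groups. Only the block fit on the 6 libraries took the number as pairing of those libraries. Other groups did not all deviate together by number. The main test holds no pairing, and it gave all calls, SEs and adjusted p-values for which no block is named. Alternatives were DESeq2 1.42.0, RLE scaling, other count filters, reverse-strand counts, the replicate block, only the groups compared, and leaving out libraries. The fits were tested on simulated data. Promoters are from RefSeq. One gene that the rule names is not reported here.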

Additional observations from a re-analysis of the deposited data

Results flagged for a closer look

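The 6 libraries titled WT siHDAC4 entered no comparison, because their titles and treatment entries give opposite OXPT states, and they were singled out for a signal in data outside the comparisons. *CDKN1A* stood at 3621, 3652 and 4312 CPM (before TMM scaling) in the 3 libraries titled WT siHDAC4 OXPT. It stood at 546, 558 and 1041 CPM in those titled WT siHDAC4 UNT. On the same scale the 12 untreated libraries without conflict reached at most 1031 CPM and the 12 OXPT libraries stood at no less than 2479 CPM. *MDM2* did not separate the titles: it stood at 424, 357 and 72.7 CPM in libraries 1, 2 and 3 titled WT siHDAC4 OXPT and at 87.2, 154 and 28.5 CPM in those titled WT siHDAC4 UNT. *TP53I3* stood at 323, 327 and 360 CPM against 29.8, 14.5 and 44.2 CPM. *CDKN1A* and *TP53I3* thus followed the titles, and no difference was tested.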

How the results depend on the processing

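With 3 libraries a group and the spread estimated over all 30 libraries, 19 of 100 simulated 2-fold changes were called. Between the titles WT PROTAC11, the 165 calls became 265 by DESeq2, 78 with at least 64 counts in every group, 10 with only the 6 libraries and 610 without number 3 in every group, an alternative chosen after seeing the data. The replicate block gave 239 and, with only the 6 libraries, 178. Leaving out 1 library gave 73 to 230. The cause of these moves was not tested.

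For WT siCT the count was 714 with at least 64 counts in every group, 84 with only its 6 libraries, 652 with those and the block, 1880 without number 3 and 715 to 1553 without 1 library. For KO PROTAC11 it was 2636 with only its 6 libraries, 3011 with those and the block, 1895 without number 3 and 459 to 888 without 1 library. The difference from WT siCT gave 1 call by DESeq2, 7 without a count filter, 4 without number 3 and 0 to 1 without 1 library. The difference from KO PROTAC11 gave 5, 20, 22 and 0 to 2. WT PROTAC11 against WT siCT UNT gave 951 by DESeq2, 1616 without a count filter, 138 with at least 64 counts in every group, 111 with reverse-strand counts, 1151 with the replicate block, 0 with only its 6 libraries, 0 with those and the block, 3302 without number 3 and 0 to 2254 without 1 library. WT PROTAC11 OXPT against WT siCT OXPT gave 553, 1221, 54, 625 with the block, 1 with only its 6 libraries, 0 with those and the block, 2598 without number 3 and 5 to 794 without 1 library. In these last comparisons same-numbered libraries did not all deviate together. Without OXPT in the title r was 0.01, 0.67 and 0.14 in numbers 1 to 3, and with it -0.47, 0.55 and -0.24. The block counts there are given without reading the number as pairing.

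Without number 3, the change between the titles WT PROTAC11 turned sign for *ASNS* (-0.63), *CCNG2* (-0.25), *COL1A1* (-0.00149), *CYP51A1* (-1.54), *EGLN1* (-0.29), *FBXW7* (0.17), *FOS* (-0.11), *JUN* (-0.28), *OASL* (-0.0434), *PHGDH* (0.00183), *RBX1* (0.0493), *VHL* (-0.0429). With the replicate block, the change between the titles WT PROTAC11 turned sign for *ASNS* (-0.00868), *HSPH1* (0.00552), *POLA1* (0.0668). With the block and only the 6 libraries, the change between the titles WT PROTAC11 turned sign for *ASNS* (-0.18), *COL1A1* (-0.00207). Without a count filter, the change between the titles WT PROTAC11 turned sign for *COL1A1* (-0.0359), *VHL* (-3.98e-04). With at least 64 counts in every group, the change between the titles WT PROTAC11 turned sign for *COL1A1* (-0.0204). Without 1 library it turned sign, within the ranges given, for *ABCC2* (-0.16 to 1.18), *ASNS* (-0.92 to 0.48), *CCNG2* (-0.26 to 0.58), *CEBPB* (-0.20 to 0.47), *COL1A1* (-0.13 to 0.10), *CYP51A1* (-1.30 to 0.84), *EGLN1* (-0.57 to 0.79), *EPCAM* (-0.32 to 0.0775), *FBXW7* (-0.21 to 0.17), *FOS* (-0.45 to 0.97), *HDAC7* (-0.21 to 0.36), *HSPD1* (-0.51 to 0.21), *HSPH1* (-0.53 to 0.41), *JUN* (-0.41 to 0.36), *KLF5* (-0.60 to 0.0209), *OAS3* (-0.70 to 0.0334), *OASL* (-0.11 to 0.58), *PHGDH* (-0.23 to 0.16), *PMAIP1* (-0.29 to 0.74), *POLA1* (-0.21 to 0.36), *PSAT1* (-0.33 to 0.13), *RBX1* (-0.31 to 0.0647), *RCHY1* (-0.00684 to 0.39), *RNF43* (-0.16 to 0.85), *SDHA* (-0.0599 to 0.73), *SDHB* (-2.56e-04 to 0.91), *SESN2* (-0.38 to 0.22), *SLC7A11* (-1.87 to 0.22), *TNFRSF10B* (-0.19 to 0.15), *VHL* (-0.13 to 0.14). None of these changes was called.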
